A study of Canis lupus familiaris with 33 samples.

Results

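The genes described here lie in the first 3 Mb of canine chromosome 10, on the CanFam3.1 assembly. They are the entries of the count table on chromosome 10 that start before position 3000000, have at least 2 exons after overlapping exons are merged, and span less than 500 kb. This gave 99 of the 30951 genes of the table. Another 11 genes start in the stretch, each with 1 exon, and were left out. The rule uses positions only, but the stretch was selected on its place as a counterpart of a human glioma amplicon with the tumour-control fold changes of these same libraries in view. The tumour-control values below are therefore a description, and the adjusted p-values say only which genes passed when all genes were tested together.

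The stretch corresponds to human 12q13 to 12q14. In human gliomas and several other tumours that region is known to be gained in many copies, with CDK4 as a well known target. CDK4 is a kinase that, with D-type cyclins, phosphorylates the retinoblastoma protein and lets cells pass from G1 into S phase. GLI1, a transcription factor at the end of the Hedgehog pathway, lies in the same human region. In the RefSeq gene table of another dog assembly, UU_Cfam_GSD_1.0, the start of chromosome 10 holds, in order and among others, CD63, CDK2, ERBB3, STAT2, STAT6, LRP1, GLI1, DDIT3, KIF5A, OS9, AGAP2, CDK4, CTDSP2 and LRIG3. Gene names could not be joined to the count table, whose Ensembl identifiers matched 0 names. Which of the values below belong to these names is therefore not known. Genes are given by their start and end on chromosome 10, counted from 1, and roles of single genes are not given. DNA copy number was not measured.

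The tumours were canine oligodendroglioma, a glial tumour that arises on its own in dogs, and the controls were brain labelled healthy, all taken at necropsy. The 4 groups were tumour kept as formalin-fixed paraffin-embedded (FFPE) blocks (11 dogs, 2 of grade II and 9 of grade III), FFPE control (10 dogs), fresh-frozen tumour (6 dogs, 1 of grade II and 5 of grade III) and fresh-frozen control (6 dogs). FFPE tumours came from 4 Boxers, 6 French Bulldogs and 1 dog of another breed, and FFPE controls from 4 Boxers, 5 French Bulldogs and 1 other dog. The fresh-frozen tumours came from 1 Boxer, 3 French Bulldogs and 2 other dogs, and the fresh-frozen controls from 2 French Bulldogs and 4 other dogs. Stated ages ran from 4.7 to 12 years in 9 FFPE tumour dogs and from 2 to 8 years in 5 FFPE control dogs, and from 4.7 to 10 and 2.8 to 10.2 years in 5 dogs each of the fresh-frozen groups. No treatment is labelled, and each library is 1 dog. The 2 tumour comparisons share 8 dogs, 5 with tumour and 3 controls, so they are not independent and their values are set side by side.

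Total counts per library ran from 406406 to 32584840, with medians of 4855197 in FFPE tumours, 3381606 in FFPE controls, 19264998 in fresh-frozen tumours and 18958778 in fresh-frozen controls. In an earlier analysis of these data a principal component set 4 fresh-frozen libraries, called set B here, apart from the other 8, called set A. Set B holds tumour dogs 60127 and 60461 and control dogs 60126 and 60462. FFPE control dog 50315 was the shallowest library, and 37 of the 99 genes had no count in it. Markers of the brain's cell types could not be looked up without gene names, so the part of cell composition in what follows was not tested. In these bulk samples fewer cells of a type and less RNA per cell cannot be told apart.

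The stretch is dense at its start and sparse at its end. Of the 99 genes, 92 start before 2 Mb and 7 between 2 and 3 Mb, the first at 16644 and the last ending at 2918589. The plus strand holds 51 and the minus strand 48. The median gene has 7 exons, an exonic length of 1713 bp and a span of 7824 bp. Reads were counted by strand, and 13 genes overlap a gene on the opposite strand while 16 overlap one on the same strand. Every gene had a count in at least 1 library. Enough counts for the tumour comparison were present for 71 genes in FFPE and 79 in fresh-frozen tissue. The 20 genes left out of both had a mean of 0.12 to 6.88 counts per library, and 5 of these 20 are among the 7 genes beyond 2 Mb.

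The 99 genes together took 0.566% ± 0.105 (SD, n = 10) of all counts in FFPE controls and 0.753% ± 0.267 (n = 11) in FFPE tumours. They took 0.686% ± 0.0760 (n = 6) in fresh-frozen controls and 1.06% ± 0.275 (n = 6) in fresh-frozen tumours. A single gene, at 1260719 to 1352271 with 92 exons, gave between 9.81% and 42.0% of these counts in any library. Levels differed widely between genes when expressed as CPM (counts scaled to the library's total in mega-counts) per kb of exon. The highest level per length was that of a gene at 437561 to 571180, with 1387 ± 465 CPM per kb in fresh-frozen controls (SD, n = 6) and 4052 ± 1561 in fresh-frozen tumours. That gene has only 424 bp of exon and overlaps 5 genes on its own strand and 3 on the other, so how its reads were assigned is uncertain. Next in fresh-frozen controls came the gene at 1636932 to 1664767, at 363 ± 92.9 CPM per kb, followed by that at 870392 to 909161, at 312 ± 49.5 CPM per kb. The difference between these latter levels was smaller than the SD of the first. In fresh-frozen tumours the means stood the other way round, at 90.5 ± 82.9 and 410 ± 136 CPM per kb.

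In fresh-frozen tissue 32 of 79 tested genes were higher in tumours at an adjusted p under 0.05 in edgeR, which is 40.5%, and 6 were lower, which is 7.59%. Over all 15057 genes tested, 30.5% were called, 18.3% higher and 12.2% lower. The median log2 fold change was 0.54 over the 79 genes, 0.16 over the 435 tested multi-exon genes of the rest of chromosome 10 and 0.10 over all genes. In 13 of the 79 genes every tumour lay above every control, and in 4 every tumour lay below every control. Over all genes these patterns were met by 6.35% and 5.13%. Within set A alone, with 4 tumours and 4 controls, 13 genes were called, against 15.2% of all genes. Within set B, with 2 and 2, edgeR called 0, against 0.0% of all genes. Over all 12 libraries 45 of the 79 had an unadjusted p under 0.05, against 44.0% of all genes. The median log2 fold change was 0.52 in set A and 0.57 in set B.

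In FFPE tissue fewer genes passed. Of 71 tested genes, 16 were higher in tumours and 7 lower, which is 22.5% and 9.86%, against 10.1% higher and 11.1% lower, or 21.1% called, over all 13338 genes tested. An unadjusted p under 0.05 was met by 35 of the 71 and by 36.3% of all genes. The median log2 fold change was 0.22 over the 71 genes, 0.06 over 388 genes of the rest of chromosome 10 and 0.02 over all genes. No gene had every FFPE tumour above every control, where the share over all genes was 0.127%. In 1 gene every tumour lay below every control, where the share over all genes was 0.277%. The count of 23 called genes was 13 without control dog 47198, 13 without control dog 50276, 14 without tumour dog 51234 and 15 without control dog 60460. Over all genes these fits called 16.1%, 16.2%, 16.7% and 17.1%. It was 7 without the 8 dogs shared with the fresh-frozen comparison, against 9.52% of all genes, and 12 without the 2 grade II tumours, against 15.3%. In the 9 tumours and 5 controls with a stated age alone edgeR called 6 genes, against 4.39% of all genes. With age as a covariate in the same 14 dogs edgeR called 0, against 0.737% of all genes.

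**Figure D1:**
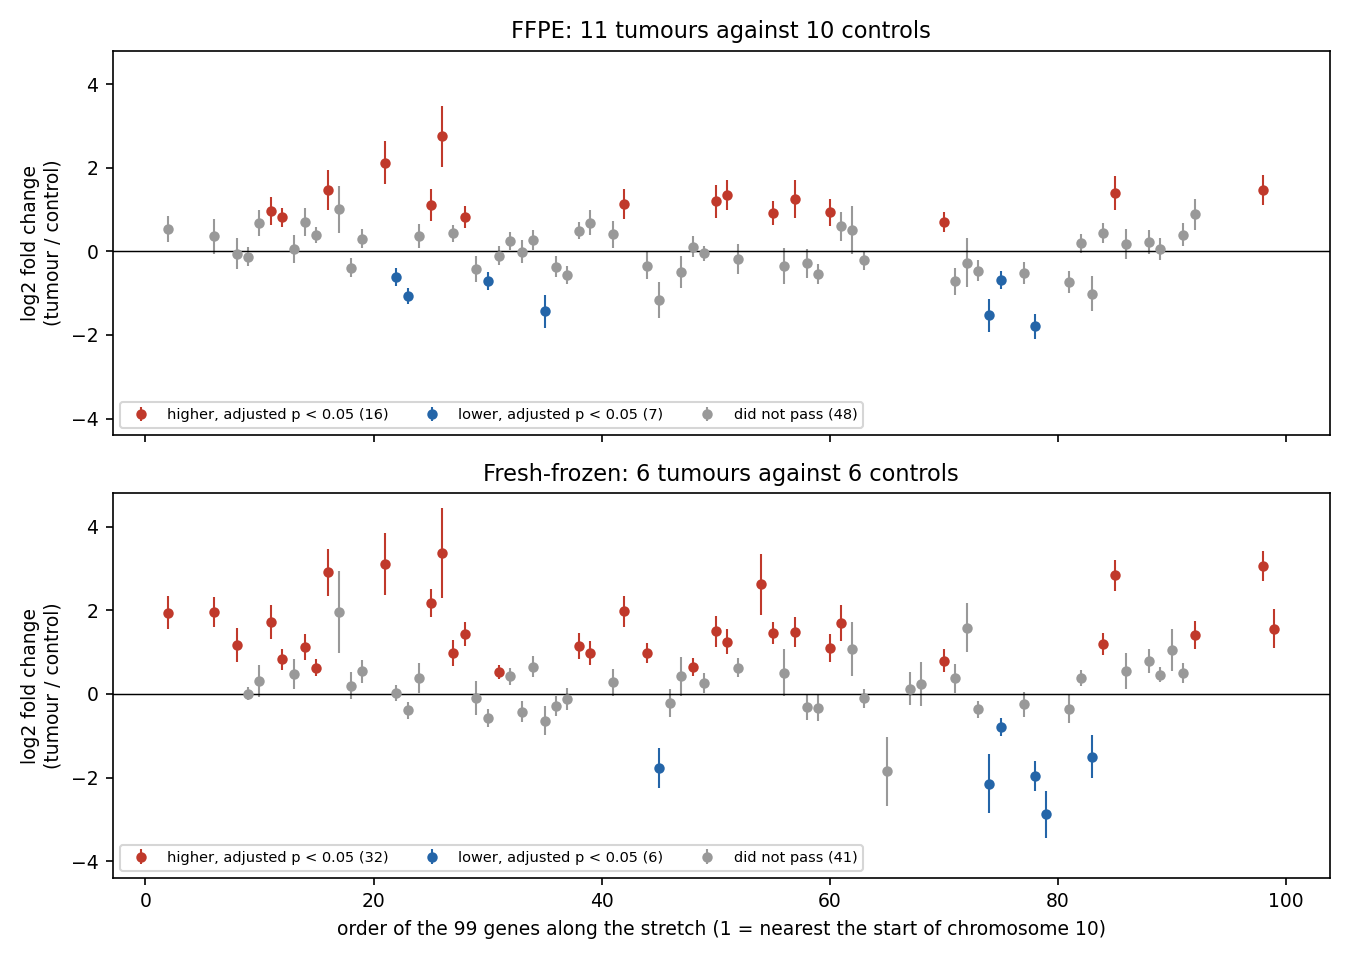
Log2 fold change of tumour against control (vertical axis, points with bars of 1 standard error) for each tested gene, in order along the stretch (horizontal axis), in FFPE (top) and fresh-frozen tissue (bottom). Red points are the genes called higher (16 and 32), blue points those called lower (7 and 6), and in fresh-frozen tissue 5 of the 6 blue points lie between genes 74 and 83.

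The largest difference in both kinds of tissue was that of the gene at 406633 to 424264 (ENSCAFG00000000097, 30 exons, 5080 bp). In fresh-frozen tissue its log2 CPM was 5.09 at the lowest, 6.25 at the median and 8.69 at the highest in tumours, and 0.47, 1.44 and 6.10 in controls. Control dog 60516 stood high at 6.10, above 3 of the 6 tumours, and the other controls reached at most 2.76. Tumours exceeded controls by a log2 fold change of 3.38 ± 1.07 (SE), or 10.4-fold (edgeR adjusted p = 0.0307). This call was lost, with an adjusted p of up to 0.0893, when any 1 of dogs 60126, 60459, 60460, 60461, 60462, 60629 or 60631 was left out. Without control dog 60516 the log2 fold change was 5.54 (adjusted p = 0.00143), and without tumour dog 60461 it was 2.56. In set A the log2 fold change was 2.27 and in set B 5.90. In FFPE tissue tumours ran from 4.98 to 9.24 with a median of 6.15, and controls from 0.43 to 6.81 with a median of 2.92. Control dog 61478 was high here, and 5 of 11 tumours lay above every control. Here the log2 fold change was 2.75 ± 0.73 (edgeR adjusted p = 0.0121). The call held without any single library, with 3.98 without control dog 61478 and 2.10 without tumour dog 51234.

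The gene at 300903 to 305438 (ENSCAFG00000000082, 8 exons) came next. Its fresh-frozen log2 CPM ran from 1.58 to 4.82 in tumours, with a median of 2.76, and from -1.27 to 2.05 in controls, with a median of -0.39. Control dog 60516 was again the highest control, and tumour dog 60679 lay below it. The log2 fold change was 3.11 ± 0.74 in fresh-frozen tissue (edgeR adjusted p = 0.00908). Without dog 60516 it was 3.93 and without tumour dog 60631 it was 2.44, and the call held without any single library. In FFPE tissue it was 2.12 ± 0.51 (edgeR adjusted p = 0.00661), with 7 of the 11 tumours higher than all controls. The gene passed the filter on low counts in only 13 of the 21 fits that left out 1 FFPE library, and it was called in all 13.

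Near the far end of the stretch lies the gene at 2724951 to 2772636 (20 exons). Its fresh-frozen tumours ran from 4.83 to 7.51 on the log2 CPM scale, with a median of 6.71. The 6 controls lay close together, from 3.50 to 4.00 with a median of 3.69, and the groups did not overlap. This was a log2 fold change of 3.06 ± 0.35, or 8.37-fold (edgeR adjusted p = 0.000623). In FFPE tissue tumours ran from 4.76 to 7.23 and controls from 2.66 to 6.05, with medians of 5.63 and 4.00. These groups overlapped, and 3 of 11 tumours lay above every control. The FFPE log2 fold change was 1.46 ± 0.36 (adjusted p = 0.00728), and it was 0.85 without the 8 shared dogs, with an adjusted p of 0.15.

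A gene at 1812886 to 1815789 (8 exons) was higher by a similar amount. Its fresh-frozen tumours ran from 5.09 to 7.24 and its controls from 2.85 to 4.28 on the log2 CPM scale, with no overlap. Its log2 fold change was 2.84 ± 0.37 (edgeR adjusted p = 0.000722), and in FFPE tissue 1.40 ± 0.40 (adjusted p = 0.0174), where 1 of 11 tumours lay above every control. The gene at 215773 to 218055 (3 exons) also had no overlap in fresh-frozen tissue, with 3.18 to 5.44 in tumours and -0.08 to 2.64 in controls. Its log2 fold change was 2.91 ± 0.57 (adjusted p = 0.00403), against 1.47 ± 0.48 in FFPE tissue (adjusted p = 0.0332). The FFPE call was lost, at an adjusted p of up to 0.0590, without any 1 of dogs 36808, 43323, 50276, 51234, 60177, 60460 or 60792.

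Further genes were called higher in each comparison, and since the comparisons share dogs their values are given side by side. They include the genes at 362694 to 364420, with log2 fold changes of 1.11 in FFPE and 2.17 in fresh-frozen tissue, and at 671269 to 687016, with 1.13 and 1.97. The gene at 437561 to 571180, which has the highest level per length, showed 0.82 and 1.44. These 3 FFPE calls were lost, at an adjusted p of up to 0.0864, without any 1 of 11, 5 and 5 of the 21 FFPE libraries. The libraries were those of dogs 36808, 43323, 43917, 45726, 47198, 50276, 51234, 60126, 60460, 60636 and 60679 for the gene at 362694, of dogs 47198, 50276, 51234, 60460 and 60749 for that at 671269, and of dogs 36808, 43323, 47198, 51234 and 60679 for that at 437561. Their fresh-frozen calls held without any single library. The gene at 1260719 to 1352271, which gives the most counts, showed 0.93 ± 0.33 (edgeR adjusted p = 0.0441) and 1.11 ± 0.34 (adjusted p = 0.0261). Its FFPE tumours ran from 8.85 to 11.88 log2 CPM and its FFPE controls from 8.49 to 10.92, with 7 of the 11 tumours higher than all controls. Its calls were lost without any 1 of 12 FFPE libraries (dogs 36808, 43323, 43917, 47198, 50276, 51234, 60126, 60177, 60460, 60461, 60679 and 60749) and without any 1 of 6 fresh-frozen ones (dogs 60126, 60461, 60462, 60631, 60679 and 60749), with adjusted p up to 0.0754 and 0.0700. A smaller difference was seen at 145036 to 148373 (0.81 and 0.83), whose fresh-frozen call was lost without any 1 of dogs 60459, 60460, 60461, 60629 and 60631 (adjusted p up to 0.0879).

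The genes with a higher call in each comparison number 16, of 71 tested in both. The comparisons share 8 dogs, and the matching share over all genes was not worked out. For many of the 16 the same control library stood highest. Fresh-frozen control dog 60516 was the highest control for 10 of the 16, or 62.5%, and for 22.6% of all tested genes. FFPE control dog 61478 was the highest control for 7 of the 16, or 43.8%, and for 10.3% of all tested genes. Control dog 60126 was the lowest control for 7 of the 16 in fresh-frozen and 6 of the 16 in FFPE tissue. Over all tested genes it was the lowest control for 21.3% in fresh-frozen and 14.3% in FFPE tissue. Shares over all genes called higher in each comparison, which would be the closer match to the 16, were not worked out. Without dog 60516 35 genes of the stretch were called in fresh-frozen tissue, against 30.1% of all genes, and without dog 61478 23 in FFPE tissue, against 23.5%.

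**Figure D2:**
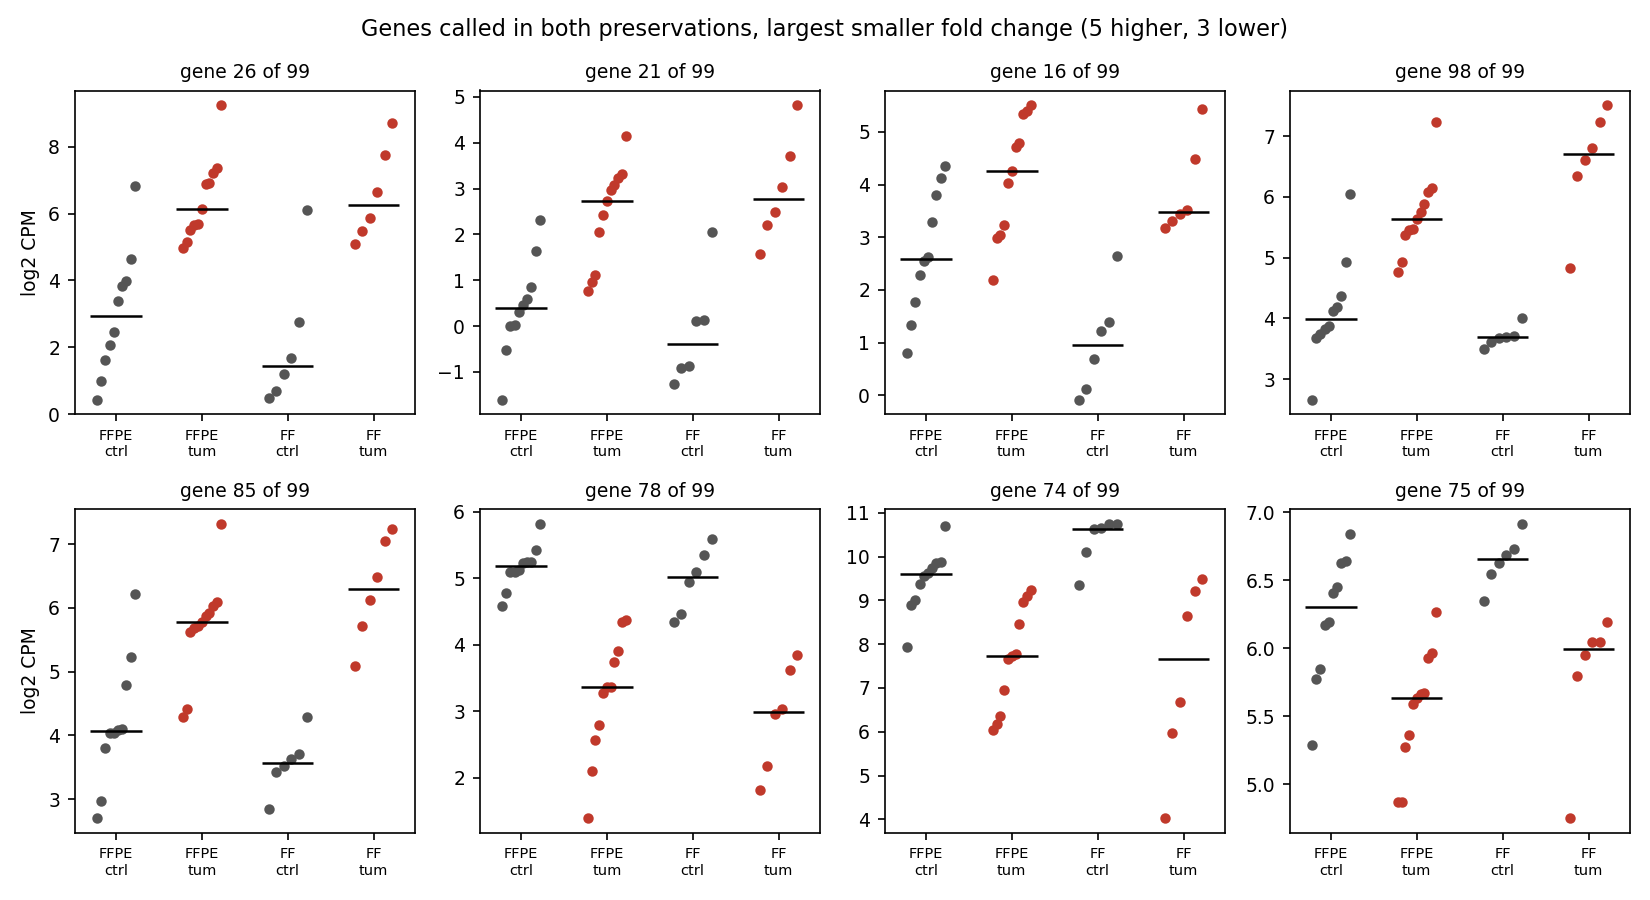
Log2 CPM (vertical axis) of 8 genes called in each comparison, by group, with 1 point per library and a bar at the group median; genes are numbered by their order along the stretch (26 is 406633 to 424264, 21 is 300903 to 305438, 16 is 215773 to 218055, 98 is 2724951 to 2772636, 85 is 1812886 to 1815789, 78 is 1687513 to 1695238, 74 is 1636932 to 1664767 and 75 is 1672380 to 1680840). The first 5 are higher and the last 3 lower in tumours, and the FFPE groups overlap for each gene shown except gene 78.

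Of the 6 genes called lower in fresh-frozen tissue 5 lay between 1.6 and 1.9 Mb, while in FFPE tissue 3 of 7 did and the other 4 lay between 320366 and 574744. In fresh-frozen tissue 7 neighbouring tested genes from 1620724 to 1709994 all had a log2 fold change below 0, and 4 of the 7 were called lower. The scarce gene at 1696112 to 1703166, counted among these 5 and these 4, passed the filter on low counts only through its controls. In FFPE tissue 8 neighbouring tested genes from 1606693 to 1709994 were all below 0, and 3 of the 8 were called. The medians of these runs were -0.79 and -0.70. They were picked out after their values were seen.

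The gene at 1687513 to 1695238 (ENSCAFG00000000250, 16 exons) was the one gene for which every FFPE tumour lay below every FFPE control. Its log2 CPM ran from 1.39 to 4.37 in FFPE tumours and from 4.58 to 5.82 in FFPE controls, with medians of 3.37 and 5.18. In fresh-frozen tissue the groups did not overlap either, with 1.81 to 3.84 in tumours and 4.34 to 5.59 in controls. Its log2 fold change was -1.79 ± 0.30 in FFPE (edgeR adjusted p = 0.00101) and -1.96 ± 0.36 in fresh-frozen tissue (adjusted p = 0.00318). Both calls held without any single library.

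The gene at 1636932 to 1664767 (ENSCAFG00000000238, 30 exons) was among the most abundant in control brain. Fresh-frozen controls ran from 9.34 to 10.75 log2 CPM with a median of 10.63, and tumours from 4.03 to 9.49 with a median of 7.65. Tumours spread over a wide range, and the one of dog 60631 was lowest while that of dog 60127 reached into the controls. This gave a log2 fold change of -2.14 ± 0.71, or 4.42-fold lower (edgeR adjusted p = 0.0364). It lost its call, at an adjusted p of up to 0.0784, without any 1 of dogs 60126, 60459, 60460, 60461, 60629 or 60749. In FFPE tissue tumours ran from 6.05 to 9.23 and controls from 7.93 to 10.69, with 7 of 11 tumours below every control. The log2 fold change there was -1.53 ± 0.40 (adjusted p = 0.0101), and the call held without any single library.

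Between these lies the gene at 1672380 to 1680840 (10 exons), with smaller differences of -0.69 ± 0.21 in FFPE (edgeR adjusted p = 0.0222) and -0.79 ± 0.22 in fresh-frozen tissue (adjusted p = 0.0185). The FFPE call was lost without control dog 50276 (adjusted p = 0.0554). Its 6 fresh-frozen tumours, at 4.75 to 6.19 log2 CPM, lay below its 6 controls, at 6.35 to 6.92. The gene at 1696112 to 1703166 (15 exons) was scarce, at a median of 0.16 log2 CPM in fresh-frozen controls and -2.25 in tumours, without overlap. Its fresh-frozen log2 fold change was -2.88 ± 0.56 (adjusted p = 0.00385), and its FFPE counts were too low to test. It had 0 to 8 counts in the fresh-frozen tumours and 11 to 36 in the controls. The gene therefore passed the filter on low counts only through the group in which it is higher, and its values only describe it.

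The remaining lower genes were called in 1 comparison each. In fresh-frozen tissue they include the gene at 722202 to 737753, with -1.77 ± 0.48 (edgeR adjusted p = 0.0162) and every tumour below every control. Its FFPE value was -1.16 ± 0.43 (adjusted p = 0.0565). The gene at 1792733 to 1807610 gave -1.50 ± 0.51 (adjusted p = 0.0412) and lost its call when any 1 of 9 of the 12 fresh-frozen libraries was left out, all but those of dogs 60462, 60636 and 60679. In FFPE tissue the clearest was at 327671 to 331825, with -1.07 ± 0.19 (adjusted p = 0.00117) and 10 of 11 tumours below every control. Its fresh-frozen value was -0.40 ± 0.21 (adjusted p = 0.165). The FFPE genes at 546964 to 574744 (-1.43 ± 0.40), 472515 to 476719 (-0.71 ± 0.22) and 320366 to 323844 (-0.61 ± 0.21) were also called lower, with fresh-frozen values of -0.64, -0.58 and 0.02. The call at 472515 was lost without control dog 47198, and that at 320366 without any 1 of dogs 43917, 47198, 50276, 50315, 50416, 60127, 60177, 60460, 60636 and 60749 (adjusted p up to 0.0739). The gene at 546964 overlaps 3 genes on the other strand.

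By position, 14 of the 26 genes tested in the first 0.5 Mb were called higher in fresh-frozen tissue and 0 were called lower. Their median difference was 0.73 on the log2 scale. Over all tested genes 18.3% were called higher and 12.2% lower in fresh-frozen tissue. From 0.5 to 1 Mb 7 of 17 rose and 1 fell, and from 1 to 1.5 Mb 5 of 11 were higher and 0 lower. From 1.5 to 2 Mb 4 of 23 were higher and 5 lower. Both tested genes beyond 2 Mb were higher. The longest run of neighbouring tested genes above 0 in fresh-frozen tissue was 16 genes from 16644 to 323844, of which 9 were called, with a median of 0.97. In FFPE tissue these first 4 intervals gave 7, 3, 3 and 2 genes higher and 3, 1, 0 and 3 lower, of 26, 16, 10 and 18 tested. Over all genes tested in FFPE tissue 10.1% were called higher and 11.1% lower.

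At the far boundary, the last 2 genes inside the stretch had fresh-frozen log2 fold changes of 3.06 (2724951 to 2772636) and 1.56 (2773411 to 2918589). The next multi-exon gene outside, at 3334126 to 3496150, had -0.59 in fresh-frozen and -0.39 in FFPE tissue. The one after it, at 4689841, had too few counts to test.

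Divided into 3 Mb bins, chromosome 10 had 23 bins with tested genes. By median log2 fold change the first bin ranked 4 of 23 in fresh-frozen tissue and 7 of 23 in FFPE tissue. Only 10 bins in fresh-frozen and 7 in FFPE tissue held at least 20 tested genes. Among bins of that size, those at 27 to 30 Mb (30 genes, median 0.75) and 66 to 69 Mb (25 genes, median 0.82) were above the first bin in fresh-frozen tissue. In FFPE tissue these gave 0.36 (26 genes) and 0.27 (24 genes), against 0.22 in the first bin.

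**Figure D3:**
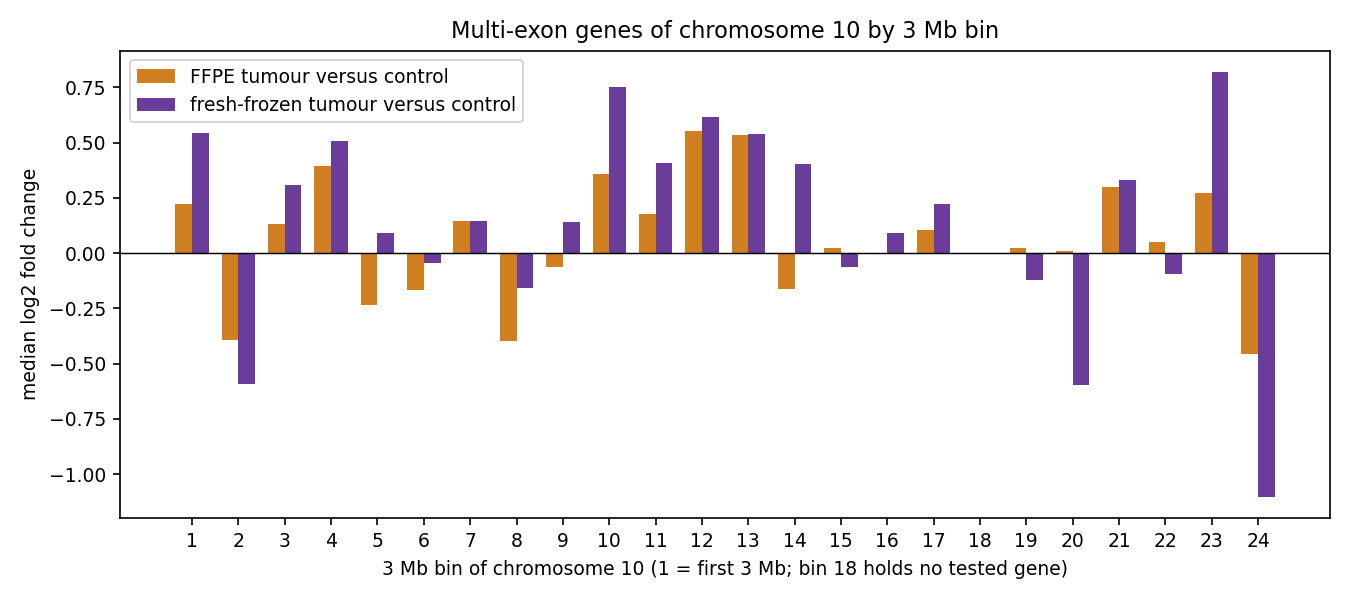
Median log2 fold change of tumour against control (vertical axis) over the tested multi-exon genes of each 3 Mb bin of chromosome 10 (horizontal axis, bin 1 first), with FFPE in orange and fresh-frozen tissue in purple. The first bin stands at 0.22 and 0.54, and several other bins reach as high or higher in either comparison.

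Of the 32 higher calls in fresh-frozen tissue 20 fell on genes whose mean level in controls was at or below the median. Split at the median control level, the lower part of the fresh-frozen genes held 20 higher and 1 lower call of 40, and its median difference was 1.10 on the log2 scale. The upper part held 12 higher and 5 lower of 39, with a median of 0.26. In FFPE tissue the lower part held 11 higher and 0 lower calls of 36 and the upper part 5 higher and 7 lower of 35. By exonic length, the shorter fresh-frozen genes gave 19 higher and 0 lower calls of 40 and the longer ones 13 and 6 of 39. By strand, 17 of 40 genes on the plus and 15 of 39 on the minus strand were higher in fresh-frozen tissue. The control level is also the base of the fold change, so a gene higher in tumours falls more easily in the lower part. A scarce gene can also enter the test through the group in which it is higher. These counts over tested genes therefore only describe the stretch, and all genes were not split in these ways. Limited to genes that overlap no other gene, 33 of 59 were called in fresh-frozen and 19 of 54 in FFPE tissue. Over all tested genes, without this limit, 30.5% and 21.1% were called. Of all tested genes 18.3% were higher and 12.2% lower in fresh-frozen tissue, and 10.1% and 11.1% in FFPE tissue.

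The level of the stretch was also followed library by library. For each library the difference of every tested gene from the mean of its own controls was taken on the log2 CPM scale, and the median over the genes of the stretch was set relative to the median over all tested genes. In fresh-frozen tissue this gave 0.46 ± 0.21 in tumours (SD, n = 6), from 0.15 to 0.67, and 0.01 ± 0.13 in controls (n = 6), from -0.22 to 0.17. Of the 6 tumours, 5 lay above every control, and dog 60127 did not. In FFPE tissue tumours gave 0.19 ± 0.33 (n = 11), from -0.35 to 0.69, and controls -0.01 ± 0.19 (n = 10), from -0.31 to 0.31. Here 4 of 11 tumours lay above every control and 2, of dogs 60127 and 50416, below every control. The highest FFPE control, at 0.31, was the shallow library of dog 50315. The rest of chromosome 10, measured the same way, gave 0.05 ± 0.13 in fresh-frozen tumours and 0.04 ± 0.16 in FFPE tumours.

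**Figure D4:**
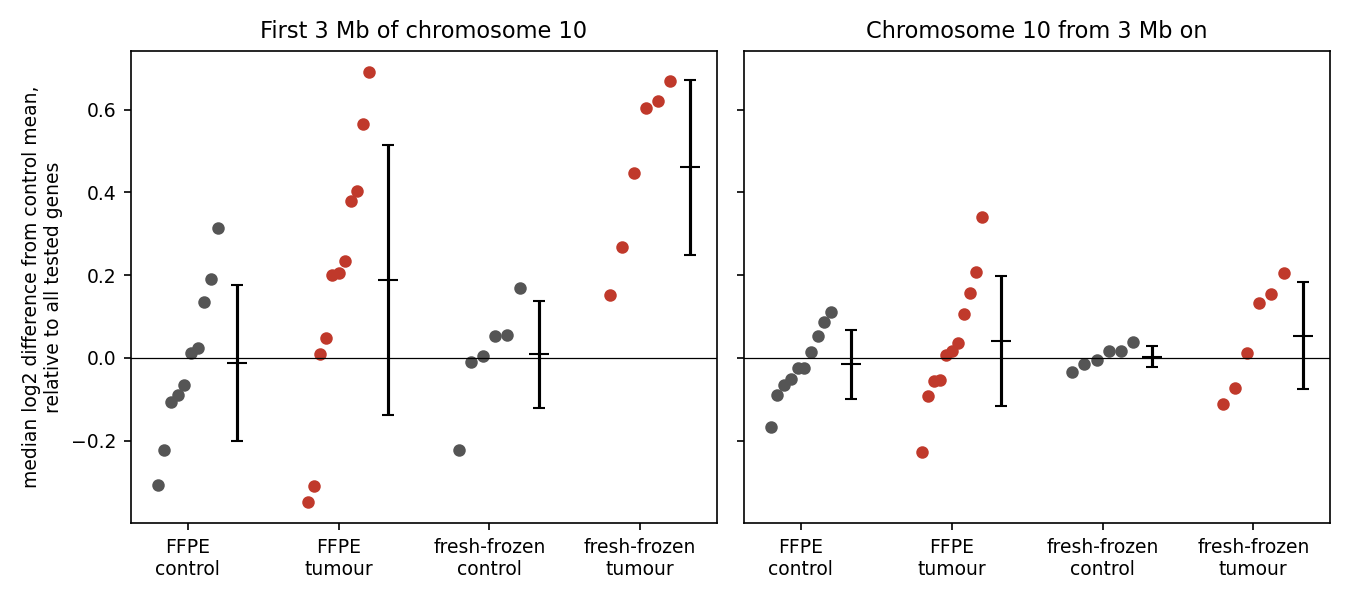
Median log2 difference from the control mean, relative to all tested genes (vertical axis), for each library in the 4 groups, with 1 point per library and bars of the mean ± 1 SD, for the stretch (left) and for chromosome 10 from 3 Mb on (right). For the stretch 5 of 6 fresh-frozen tumours and 4 of 11 FFPE tumours lie above every control.

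The same dogs can be read in both kinds of tissue. Tumour dog 60749 gave 0.56 in FFPE and 0.67 in fresh-frozen tissue, and tumour dog 60461 gave 0.40 and 0.61. Tumour dog 60679 gave 0.20 and 0.45 and tumour dog 60636 gave 0.05 and 0.27. Tumour dog 60127 was lowest among tumours in both, at -0.35 and 0.15. Control dogs gave -0.22 and -0.22 (60126), -0.09 and 0.05 (60460) and -0.31 and -0.01 (60462).

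Gene by gene, some tumours stood out. FFPE tumour dog 51234 was the highest tumour for 18 of 71 genes, or 25.4%, and for 7.71% of all tested genes. Dog 60127 was the lowest FFPE tumour for 21 of 71, or 29.6%, against 14.1% of all genes, and the lowest fresh-frozen tumour for 25 of 79, or 31.6%, against 20.1%. Fresh-frozen tumour dog 60461 was the highest for 26 of 79, or 32.9%, against 18.4%. In each of the 33 libraries the lower quartile over the genes of the stretch, taken the same way as the median above, lay at or below 0.02.

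Whether the tumour difference itself depends on how the tissue was kept was tested with an interaction term over all 33 libraries. The 8 dogs with a library of each kind enter this fit with both libraries, without a term for the dog, so its libraries are not all independent. None of 78 tested genes passed in edgeR, and 7 had an unadjusted p under 0.05. Over all 15714 genes 0.0% passed and 3.66% had an unadjusted p under 0.05. DESeq2 called 0 of the genes of the stretch, against 0.00332% of all genes. The log2 difference, FFPE minus fresh-frozen, was below 0 in 59 of the 78 genes, with a median of -0.31, against 0.00 over all genes. The lowest unadjusted p, 0.00911, was that of the gene at 2724951 to 2772636, with -1.47 ± 0.53 (adjusted p = 0.9999).

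The kinds of tissue were compared directly in the 8 dogs with a library of each, a contrast the rule does not use. Of 83 tested genes 1 was higher and 0 were lower in FFPE, against 2.81% and 0.135%, or 2.95% called, over all 17097 genes. With the dog as a block, since same-numbered libraries come from the same animal, 4 genes were called, 3 higher and 1 lower, against 3.83% of all genes. The gene called in both fits lies at 1613643 to 1619745 (12 exons). On the log2 CPM scale of each kind of tissue, its tumours gave 2.28 in FFPE and 0.80 in fresh-frozen tissue (dog 60127), 5.42 and 0.09 (60461), 4.72 and 2.42 (60636), 4.78 and 1.42 (60679), and 4.61 and 3.48 (60749). Its controls gave 0.47 and 0.11 (60126), 4.44 and -0.42 (60460), and 3.68 and 0.63 (60462). FFPE was the higher in all 8 dogs, by little in dog 60126 and by much in dog 60461. Its log2 fold change was 3.06 ± 0.59 (edgeR adjusted p = 0.00898), and 2.85 ± 0.56 with the block (adjusted p = 0.0210).

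Over all FFPE libraries the log2 CPM of this gene ran from 2.28 to 7.56 in tumours and from 0.47 to 7.54 in controls, and its tumour difference was -0.27 ± 0.59 in FFPE and 1.59 ± 0.59 in fresh-frozen tissue, neither of which passed (edgeR adjusted p = 0.773 and 0.0562). The other genes called with the block were at 1565244 to 1575982 (2.67 ± 0.66), 1370350 to 1504017 (0.69 ± 0.17) and 514635 to 542395 (-1.0 ± 0.25). Without the block they had 2.57, 0.69 and -0.95 and did not pass.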

How the data were processed

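The 33 libraries of 25 dogs were made from total RNA with a stranded kit and molecular identifiers, per the labels' protocols. No source used here says whether copies were collapsed by identifier, so counts may hold PCR duplicates. The deposited values were raw counts per gene, made by the authors with featureCounts 1.6.0 on CanFam3.1 and Ensembl release 100 models, with strand option 1 and a mapping quality of at least 10, per the file headers. The submitters' processing notes also name fastp and STAR. Exonic length was taken from the same deposited table, whose count columns all matched a label.

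The members and lists were chosen with earlier results of these data known. Counts of all genes were fitted with edgeR 4.0.16 under R 4.3.3 (robust quasi-likelihood test, TMM scaling, filterByExpr), with Benjamini-Hochberg adjustment over all tested genes at 0.05, and only genes of the stretch are given. The fits were also run on simulated counts, drawn independently with the same spread for every gene and no dog effect. That run checks the code and says nothing of how firm the calls in these data are. Tumour and control were compared in FFPE tissue and, in a separate fit, in fresh-frozen tissue. A further fit set FFPE against fresh-frozen libraries of 8 dogs, adjusting for tissue, and another tested the interaction. Log2 CPM used a prior count of 2. Alternatives were DESeq2 1.42.0, other scaling and filters, covariates, subsets and leaving out each library. Dog numbers name the animal. Deviations from the group means correlated at 0.0641 to 0.748 within the 8 same-dog pairs of libraries, above 0.1 in 7 of them. Pairs of different dogs were not looked at, so these values do not test the pairing. Each dog gave at most 1 library of each preservation, so in the tumour comparisons p-values measure the spread between dogs. In the interaction fit 8 dogs enter with both libraries and without a block, so its libraries are not all independent.

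Genes taken singly were those called in either tumour comparison, up to the 10 with the largest absolute change per direction and comparison, plus the 5 in which the highest tumour exceeded the highest control the most, 25 in all. Not all are described above. Those starting at 61569, 938683, 967261, 1124320 and 1150486 were called higher in fresh-frozen tissue, with log2 fold changes of 1.95, 1.49, 1.25, 2.62 and 1.46. In FFPE tissue those at 938683, 967261 and 1150486 were also called higher, with 1.20, 1.35 and 0.92. The FFPE call at 938683 was lost in 7 of 21 leave-one-out fits and that at 1150486 in 1. The gene at 61569 gave 0.36 in FFPE tissue and was not called. The gene at 1124320 was scarce, at an average of 0.41 log2 CPM, and was not tested in FFPE tissue. Those at 16644 to 43999 and 1202025 to 1218280, taken up below for values that stand apart, were also called higher in fresh-frozen tissue. Their log2 fold changes there were 1.95 and 1.48 (edgeR adjusted p = 0.00496 and 0.00962). In FFPE tissue they gave 0.54 (adjusted p = 0.217) and 1.26 (adjusted p = 0.0494). The FFPE call at 1202025 was lost in 14 of the 21 fits that left out 1 library. Genes outside the 25 were named where a sentence turned on them, after their values were seen. Lists of cell type markers and pathway genes, and all sequences, were not used here because identifiers could not be paired with names.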

Additional observations from a re-analysis of the deposited data

Results flagged for a closer look

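In the genes taken singly, 78 groups of 4 to 10 values were checked for a library far from the others of its group. In these, 6 such values were found, where chance gives about 1 in 20. Of these, 4 belong to FFPE control dog 50315, the shallowest library, in which 3 counts correspond to 7.38 CPM. Its log2 CPM was -1.61, with 0 counts, for the genes at 16644 to 43999, 722202 to 737753 and 1202025 to 1218280, where the next lowest controls had 1.5, 3.61 and 0.99. For the gene at 320366 to 323844 it was the highest control at 8.35, with the next at 7.35. Without dog 50315 the number of called genes in FFPE tissue stayed at 23. The call of the gene at 320366 was lost then and also in 9 other fits that left out 1 library.

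Fresh-frozen tumour dog 60631 stood apart at 0.18 log2 CPM for the gene at 722202 to 737753, where the next lowest tumour had 2.62. Fresh-frozen tumour dog 60749 stood apart at 4.75 log2 CPM for the gene at 1672380 to 1680840, where the next lowest had 5.80. Both genes stayed lower in tumour without the library concerned. The cause of these values was not tested.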

How the results depend on the processing

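The FFPE count of 23 called genes was 7 without the 8 dogs shared with the fresh-frozen comparison (9.52% of all genes) and 12 without grade II tumours (15.3%). In the dogs with an age stated for the FFPE library it was 6 (4.39%) and, with age as a covariate, 0 (0.737%). It was 13 to 28 when 1 library was left out. DESeq2 gave 33 (22.6% of all genes), of which 21 were higher and 12 lower, and other settings gave 19 to 29. Without a filter on low counts the FFPE median over all genes moved to -0.41 and that over the 99 genes of the stretch to 0.02. The fresh-frozen count of 38 was 13 in set A (15.2% of all genes), 0 in set B (0.0%) and 27 to 40 when 1 library was left out. It was 46 with the set as a covariate (40.2% of all genes), 39 with DESeq2 (32.5% of all genes) and 30 to 35 with other scaling, filters or without the grade II tumour. The count of 1 between FFPE and fresh-frozen tissue was 4 with the dog as a block (replicate block), 5 with DESeq2 (5.69% of all genes), and 1 to 3 when 1 dog was left out, with 3 without dog 60126 and 2 without dog 60749. The interaction stayed at 0 with RLE scaling, both other filters and DESeq2. The mean tumour-control difference in the level of the stretch was 0.12 to 0.23 in FFPE and 0.45 to 0.52 in fresh-frozen tissue over the alternatives. Among 1201 recomputed values of single genes, 1007 kept their side of the threshold, 176 lost the call and 18 gained one. The sign changed in 10, all for the fresh-frozen difference of the gene at 320366 (0.02), which was not called in any of them. Of the single genes called, 18 of 21 in fresh-frozen and 9 of 19 in FFPE tissue kept their call in every leave-one-out fit that tested them. The 9 include the gene at 300903, which was tested in only 13 of the 21 FFPE fits. The stated-age subset without a covariate, the sets and the combined removal of 2 FFPE controls (29 called), the set covariate and the limit to non-overlapping genes were chosen after results were seen. The cause of these shifts was not tested. Too few counts left 28 of the 99 genes untested in FFPE and 20 in fresh-frozen tissue.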
